A study of Citrullus lanatus with 4 samples.

Results

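The change in transcript level between floral bud and flower was compared between DAH3615-MS, a genic male sterile watermelon line, and DAH3615, its fertile near-isogenic line. Each gene with at least 10 counts summed over the 4 libraries entered the comparison, which held 17697 of the 23440 genes in the count table. Counts were scaled to the column sums as counts per 1e6 (CPM), 1 CPM was added, and the log2 ratio of flower to floral bud was taken in each line. The difference was the ratio of DAH3615 minus the ratio of DAH3615-MS, so a positive difference means that the flower stood higher relative to its own floral bud in DAH3615. The same number is the gap between the lines in flowers minus the gap in floral buds. The 93 genes with exactly 10 counts had differences between -1.50 and 1.51 (median -0.03). Just outside the minimum, the 104 genes with 9 counts lay between -1.36 and 1.28 (median -0.18).

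RNA-seq was performed on flowers and floral buds of DAH3615-MS and on flowers and floral buds of DAH3615, with 1 library per condition. No replicate measured the spread between plants, so every difference is a description of these 4 libraries, and no test was run. DAH3615-MS plants were homozygous for the recessive allele (msms), in a background derived from the ms-1 male sterile line, and their flowers had defective stamens and no pollen. DAH3615 plants carried the allele in the heterozygous state (Msms), and both came from one segregating greenhouse population. Floral buds were taken on the day before flowering and flowers on the first day of flowering, from different nodes. The DAH3615-MS floral buds were shorter than the DAH3615 floral buds, so bud size and line cannot be told apart. The libraries held 5239032 counts for DAH3615-MS flowers, 5778852 for DAH3615-MS floral buds, 6315796 for DAH3615 flowers and 5631190 for DAH3615 floral buds. At this depth 1 CPM equalled 5.24 to 6.32 counts, and 3 counts, the limit that a count of 0 allows, equalled 0.475 to 0.573 CPM.

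In a fertile anther, the tapetum, the cell layer around the developing pollen, feeds the pollen with sugars and lipids and then breaks down as the pollen matures. Mature pollen stores transcripts for wall loosening, the cytoskeleton and ion transport that are used when the pollen tube grows. As the anther matures the tapetal transcripts are normally lost while those of mature pollen are kept, alongside changes in petals and other organs that do not depend on pollen. Whether the floral buds taken here still held tapetum was not examined.

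For most genes the change between floral bud and flower was of similar size in both lines. The difference had a median of 0.02, a 25th percentile of -0.30 and a 75th percentile of 0.35, and it was below 1 in size, which is a 2-fold gap, in 16005 genes (90.4%). A difference at or above 1 was found in 851 genes (4.81%), and one at or below -1 in 841 genes (4.75%). Beyond a 4-fold gap the sides were unequal, with 70 genes at or above 2 (0.396%) and 162 genes at or below -2 (0.915%). Farther out, 10 genes were at or above 3 and 49 at or below -3, while no gene was at or above 4 and 18 were at or below -4. The lower side thus held most of the large differences, and the extreme values were -8.14 and 3.87. This balance rested on the added constant, since 315 genes were at or above 2 and 367 at or below -2 with 0.2 CPM added, against 8 and 70 with 5 CPM. The genes nearest to the limits of 2 had differences of 2.003 and -2.006 just inside and of 1.99 and -1.99 just outside.

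Across the 17697 genes, the changes of the lines had a Pearson correlation of 0.792 and a Spearman correlation of 0.760. The changes share no library, but genes are not independent replicates. Pearson's value was 0.870 over the 5390 genes with at least 1000 counts, and the interquartile range of the difference was 0.51 in these genes, compared with 0.98 in the 3619 genes with under 100 counts. A 95% interval for counting error (Woolf's method on the counts, 0.5 added to each) left out a difference of 0 in 4980 genes (28.1%), in 61 of the 70 genes at or above 2 and in 145 of the 162 genes at or below -2. These intervals cover counting error only, not the spread between plants. Each is centred on an estimate from the counts with 0.5 added, not on the printed difference with 1 CPM added.

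**Figure D1:**
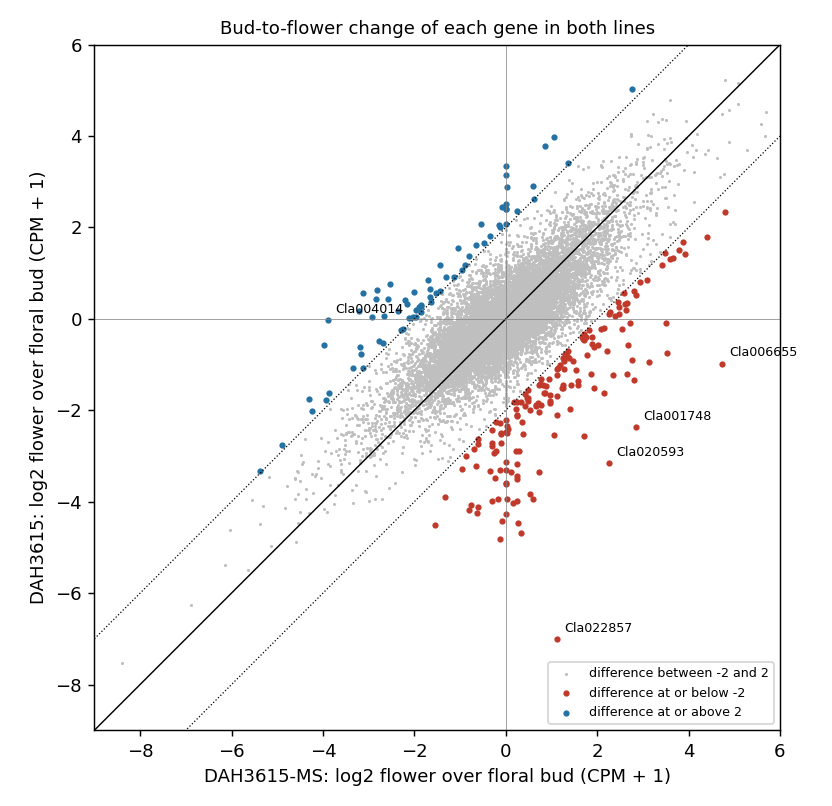
Bud-to-flower change of each of 17697 genes, as log2 of flower over floral bud on CPM + 1, in DAH3615-MS (x axis) and DAH3615 (y axis). Most genes lie along the diagonal of equal change, and the 162 genes at or below -2 spread farther from it than the 70 genes at or above 2, down to -8.14 for Cla022857.

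The genes were then sorted by whether each line moved by at least 1 on the log2 scale. In DAH3615-MS 4713 genes moved by this much, and in DAH3615 3880 genes did. Both lines moved the same way in 2699 genes, of which 1424 were lower and 1275 higher in the flower. Within these 2699 genes the change was larger in DAH3615-MS in 1665 (61.7%), with a median size of 1.71 in DAH3615-MS and 1.56 in DAH3615. Over all genes the change also spread more widely in DAH3615-MS (interquartile range 1.12 against 0.96 in DAH3615). Genes that moved in DAH3615-MS while DAH3615 stayed within 1 numbered 1189 on the lower side and 797 on the higher side. The reverse case, movement in DAH3615 alone, held 633 genes on the lower side and 520 on the higher side. Opposite movement was rare. The flower was higher in DAH3615-MS and lower in DAH3615 in 26 genes (0.147%), and lower in DAH3615-MS and higher in DAH3615 in 2 genes (0.0113%).

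A difference can come from any of the 4 libraries, so each gene past 2 was assigned to the library whose level lay farthest from the other 3. Of the 70 genes at or above 2, 33 (47.1%) had DAH3615-MS flowers as the low library. Their median levels were 0.954 CPM in DAH3615-MS flowers and 9.17 CPM in DAH3615-MS floral buds, against 45.3 CPM in DAH3615 flowers and 68.4 CPM in DAH3615 floral buds. By these medians the genes were already lower in the sterile floral bud than in the fertile one. The still lower level in the sterile flower follows from how the genes were sorted. A further 19 genes had DAH3615 flowers as the high library, with medians of 0.382 and 0.346 CPM in DAH3615-MS flowers and floral buds, against 7.60 and 0.710 CPM in DAH3615 flowers and floral buds. In 12 genes DAH3615-MS floral buds were high and in 6 genes DAH3615 floral buds were low.

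Among the 162 genes at or below -2, 86 (53.1%) had DAH3615 floral buds as the high library. Their median levels were 1.72 CPM in DAH3615-MS flowers and 1.12 CPM in DAH3615-MS floral buds, against 3.56 CPM in DAH3615 flowers and 39.7 CPM in DAH3615 floral buds. Another 52 genes (32.1%) had DAH3615-MS floral buds as the low library, with medians of 20.1 CPM in DAH3615-MS flowers and 4.24 CPM in DAH3615-MS floral buds, against 22.9 CPM in DAH3615 flowers and 27.6 CPM in DAH3615 floral buds. In that second set the flowers of the lines had similar medians and the floral buds did not, which follows largely from how the genes were sorted. DAH3615-MS flowers were high in 14 genes and DAH3615 flowers low in 10 genes. In 625 genes both DAH3615-MS libraries had at most 3 counts, and 25 of these (4.0%, against 0.915% of all genes) were at or below -2 and 9 (1.44%, against 0.396% of all genes) at or above 2. All 625 genes needed DAH3615 counts to reach the minimum of 10, and their difference is close to the change of DAH3615 alone. Over all genes that change spread more widely than the difference (SD 0.946 against 0.645). How far this accounts for the higher shares was not tested. In the mirror case, 182 genes had at most 3 counts in both DAH3615 libraries, with 1 at or above 2 (0.549%) and 0 at or below -2. Where both DAH3615-MS counts were 0, the difference equals the change of DAH3615.

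**Figure D2:**
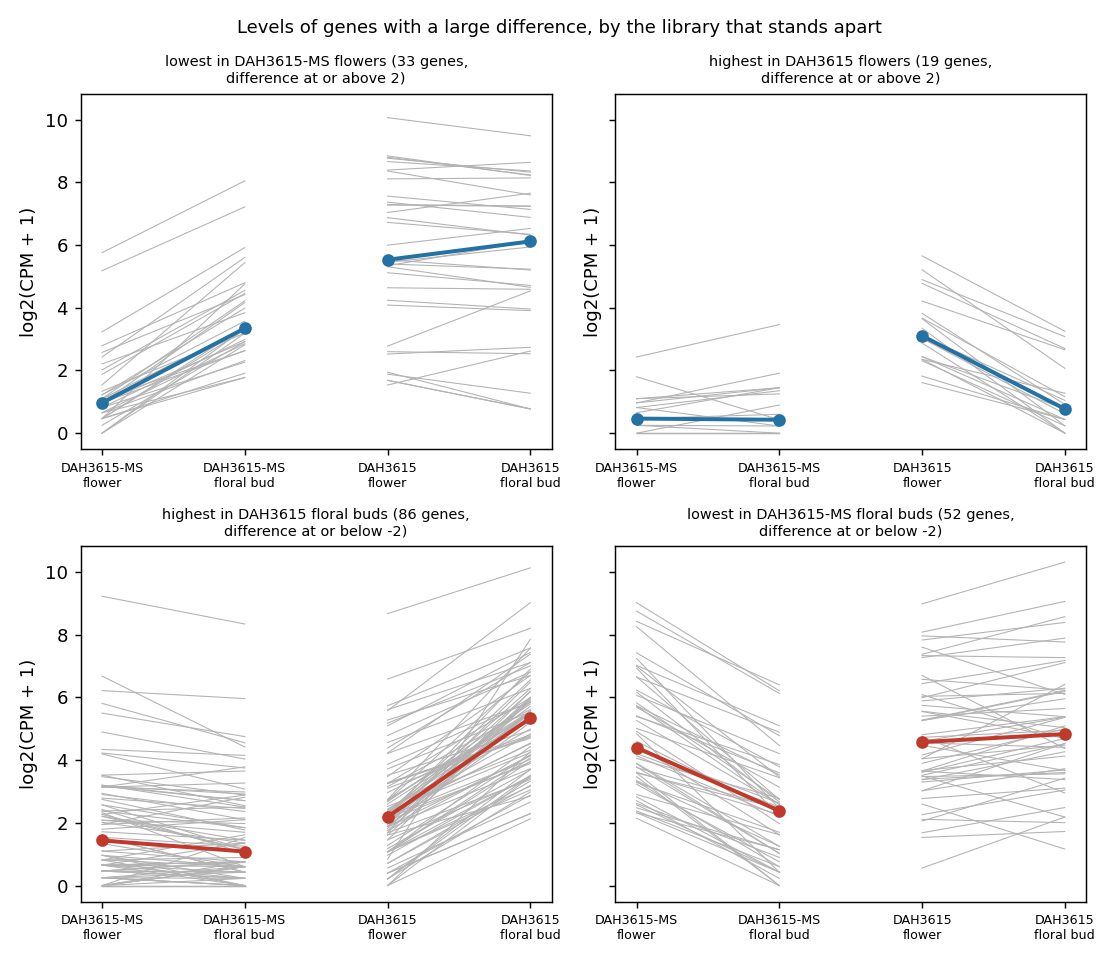
Levels, as log2(CPM + 1), of genes with a difference past 2 in the 4 libraries, grouped by the library that stands apart (grey, 1 line per gene; colour, medians). The 33 genes low in DAH3615-MS flowers and the 86 genes high in DAH3615 floral buds are the largest groups on their sides.

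The highest differences were led by Cla004014 (chromosome 7, 3762988 to 3764556, watermelon genome version 1), for which no description was at hand. Cla004014 had 10 counts in DAH3615-MS flowers and 245 in DAH3615-MS floral buds, against 1740 in DAH3615 flowers and 1585 in DAH3615 floral buds. Its log2 change was -3.90 in DAH3615-MS and -0.03 in DAH3615, a difference of 3.87 (95% counting interval 3.48 to 5.27). Cla010065 (chromosome 5, 32366247 to 32366729) showed the same order, with 6 and 102 counts in DAH3615-MS flowers and floral buds, against 2812 and 1693 in DAH3615 flowers and floral buds (difference 3.68). Cla021494 (chromosome 5, 3615808 to 3619271) was not detected in DAH3615-MS flowers and had 35 counts in DAH3615-MS floral buds, against 2896 and 1673 counts in DAH3615 flowers and floral buds (3.44). In all 3 genes both DAH3615 libraries were high and the sterile flower was close to empty. Cla004807 (chromosome 3, 23918954 to 23923195) differed from them, since only DAH3615-MS floral buds were high: it had 1 count in DAH3615-MS flowers and 103 in DAH3615-MS floral buds, against 1 in DAH3615 flowers and 4 in DAH3615 floral buds (3.42).

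The described gene with the highest difference was Cla000811 (chromosome 0, 18990293 to 18992692), a trichome birefringence protein of a family that acetylates cell wall polysaccharides. It had 5 counts in DAH3615-MS flowers and 98 in DAH3615-MS floral buds, against 260 in DAH3615 flowers and 206 in DAH3615 floral buds, which gave 3.37 (2.92 to 5.46). Cla001873 (chromosome 11, 27065514 to 27066071), a SAUR-like protein of the auxin-induced family linked to cell expansion, followed with 3.003 (2.56 to 4.15). It had 14 counts in DAH3615-MS flowers and 121 in DAH3615-MS floral buds, against 1187 in DAH3615 flowers and 787 in DAH3615 floral buds. Both genes were lower in the flower than in the floral bud of the sterile line and slightly higher in the flower of the fertile line. In bulk tissue, fewer cells of a type and less RNA per cell cannot be told apart.

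Among enzymes of lipid and amino acid use, Cla002166, a glycerophosphodiester phosphodiesterase that acts in phospholipid breakdown, had 288 counts in DAH3615-MS flowers and 839 in DAH3615-MS floral buds, against 1072 in DAH3615 flowers and 653 in DAH3615 floral buds (1.93). Cla002733, a 3-ketoacyl CoA thiolase of fatty acid beta-oxidation, had 64 and 340 counts in DAH3615-MS flowers and floral buds, against 154 and 201 in DAH3615 flowers and floral buds (1.65). Cla002657, an amino acid transporter, had 279 and 1351 counts in DAH3615-MS flowers and floral buds, against 477 and 596 in DAH3615 flowers and floral buds (1.63). In the thiolase and the transporter the sterile floral bud was the highest library, and the flower was the lower organ in both lines. The remaining described genes on this side, from an exodeoxyribonuclease (Cla002579, 1.88) to a peroxidase (Cla003191, 1.32), were between 1.32 and 1.88. For 1 of them, the leucine-rich repeat receptor-like kinase Cla002653, the counting interval included 0 (-1.23 to 7.57), as the sterile line had 0 counts in flowers and 2 in floral buds.

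The lowest difference of all belonged to Cla022857 (chromosome 11, 14761861 to 14765600), with no description at hand. Cla022857 had 91 counts in DAH3615-MS flowers and 43 in DAH3615-MS floral buds, against 5 in DAH3615 flowers and 1299 in DAH3615 floral buds. The log2 change was 1.12 in DAH3615-MS and -7.01 in DAH3615, a difference of -8.14 (-10.58 to -7.95). It was high in the fertile floral bud and nearly lost in the fertile flower, while the sterile line had moderate counts in both organs. Cla003827 (chromosome 10, 7200544 to 7202527) was likewise high in the fertile floral bud alone, with 31 and 26 counts in DAH3615-MS flowers and floral buds, against 23 and 669 in DAH3615 flowers and floral buds (-5.02). Cla006655 (chromosome 6, 2741112 to 2743007) had another shape, with the sterile floral bud as the low library: 636 counts in DAH3615-MS flowers and 21 in DAH3615-MS floral buds, against 1708 in DAH3615 flowers and 3008 in DAH3615 floral buds (-5.70). Cla016180 (chromosome 9, 12313623 to 12318188) shared that shape at higher depth, with 2722 and 423 counts in DAH3615-MS flowers and floral buds, against 3197 and 7182 in DAH3615 flowers and floral buds (-4.14, interval -4.32 to -4.00).

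The described gene with the lowest difference was Cla001748 (chromosome 7, 15068827 to 15070362), described as cation/H(+) antiporter 18, of a family with many pollen-expressed members in Arabidopsis. It had 72 counts in DAH3615-MS flowers and 6 in DAH3615-MS floral buds, against 98 in DAH3615 flowers and 476 in DAH3615 floral buds. Its difference was -5.23 (-7.26 to -4.86). The next gene on the same strand, Cla001749 (15070413 to 15071786), carries the same description and had 21 and 3 counts in DAH3615-MS flowers and floral buds, against 28 and 174 in DAH3615 flowers and floral buds (-4.27). Whether the adjoining models are pieces of 1 gene was not tested, and they are not separate evidence. Cla001355, an NADH dehydrogenase of electron transport, had 73 and 8 counts in DAH3615-MS flowers and floral buds, against 107 and 226 in DAH3615 flowers and floral buds (-3.84). In all 3 models the flowers of the lines had similar counts, the sterile flower was above the sterile floral bud, and the fertile flower was below the fertile floral bud.

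Several carriers and enzymes among the described genes were nearly or fully without counts in DAH3615-MS. Cla000254 and Cla000359, both described as sucrose transporter 6, had no counts in either DAH3615-MS library. In DAH3615, Cla000254 had 17 counts in flowers and 248 in floral buds (-3.61), and Cla000359 had 24 in flowers and 321 in floral buds (-3.60). Both lie on chromosome 0, which gathers unplaced sequence in this genome, and reads shared between near-identical copies were not examined, so their separate values are uncertain. Cla000966, a bidirectional sugar transporter N3 of the family that moves sugars to and from cells by facilitated transport, had 0 counts in both DAH3615-MS libraries, against 34 in DAH3615 flowers and 307 in DAH3615 floral buds (-3.12). For these 3 genes the sterile line offered no change to set against that of DAH3615, and the counting interval of the difference included 0. Cla002146, a non-specific lipid-transfer protein, had 1 count in each DAH3615-MS library, against 18 in DAH3615 flowers and 326 in DAH3615 floral buds (-3.96, -7.78 to -1.11). A polygalacturonase, which cuts pectin, and a cytochrome P450 had the same profile: Cla001080 (-3.39) had 4 and 12 counts in DAH3615-MS flowers and floral buds, against 16 and 357 in DAH3615 flowers and floral buds. The cytochrome P450 Cla001029 (-3.77) had 1 and 2 counts in DAH3615-MS flowers and floral buds, against 13 and 260 in DAH3615 flowers and floral buds. All 6 genes were highest in the fertile floral bud and had at most 12 counts in either sterile library.

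Among other described genes on the lower side, the nitrate reductase and MATE efflux models had similar flowers and a low sterile floral bud. Cla002787 (chromosome 3, 10829825 to 10830613), described as nitrate reductase 2, which turns nitrate into nitrite, had 524 counts in DAH3615-MS flowers and 33 in DAH3615-MS floral buds, against 424 in DAH3615 flowers and 138 in DAH3615 floral buds. The flower was the higher organ in both lines, by 3.91 in DAH3615-MS and 1.42 in DAH3615, and the difference was -2.49 (-3.23 to -2.08). The adjoining model Cla002788 (10830636 to 10832990), also described as nitrate reductase 2, had 1597 and 122 counts in DAH3615-MS flowers and floral buds, against 1222 and 380 in DAH3615 flowers and floral buds (-2.28). These models again lie end to end on 1 strand. Cla003109, a MATE efflux transporter, had 47 and 3 counts in DAH3615-MS flowers and floral buds, against 64 and 61 in DAH3615 flowers and floral buds (-2.80), and its neighbour Cla003110 had 48 and 8 counts, against 60 and 63 (-2.31). Cla000551, a vicilin of the seed storage family, had another shape, with the fertile floral bud as the high library. It had 35 and 19 counts in DAH3615-MS flowers and floral buds, against 111 and 317 in DAH3615 flowers and floral buds (-2.47).

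**Figure D3:**
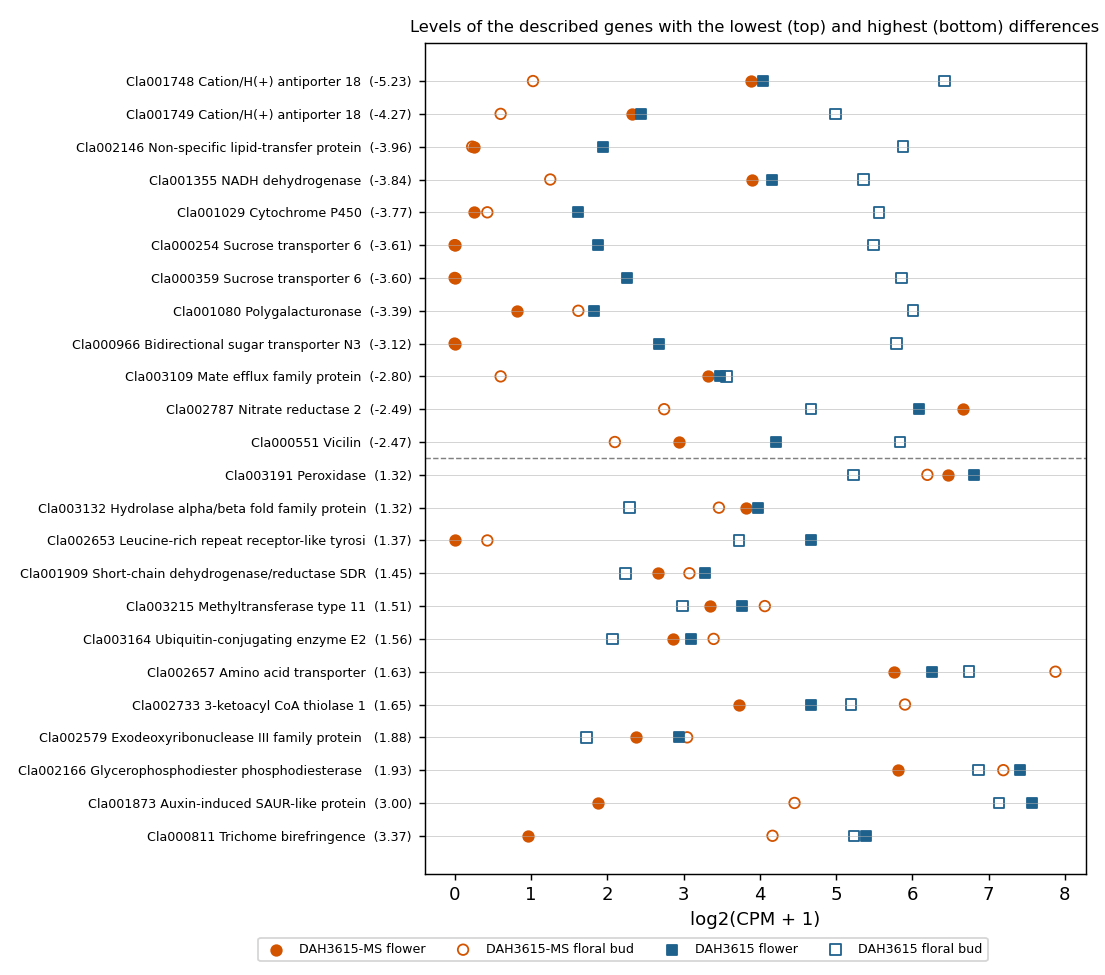
Level, as log2(CPM + 1), in each library of the 12 described genes with the lowest and the 12 with the highest differences among genes with at least 100 counts, with the difference in brackets. Above the dashed line the DAH3615 floral bud (open squares) lies highest in 11 of 12 genes, the exception being nitrate reductase 2, for which both flowers lie above both floral buds.

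Descriptions were at hand for 1703 of the 17697 genes, and 14 keyword lists were drawn from them, with 324 genes in at least 1 list. The median difference was 0.02 over all genes, and 13 of the 14 list medians lay between -0.22 and 0.37. The exception was the 6 sugar transporters, with a median of -2.04. This value rested on genes without counts in the sterile line, since the median turned to 0.52 over genes with more than 3 counts in a library of each line, and it was -0.96 with a minimum of 1 count. Of the 6 genes, 3 were at or below -2 (0.915% of all genes), and all 3 were the genes without counts in the sterile line. Of the other 3, Cla002641, also a bidirectional sugar transporter N3, had 436 and 99 counts in DAH3615-MS flowers and floral buds, against 405 and 38 in DAH3615 flowers and floral buds (0.86). The transporters therefore did not share a direction, and 2 of 6 differences were positive (51.7% of all genes).

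The 20 lipid enzymes had a median of -0.22, which turned to 0.05 with a minimum of 100 counts, with 5 genes at or below -1 (4.75% of all genes) and 1 at or above 1 (4.81% of all genes). The lowest with at least 100 counts was the lipase Cla000709, with 124 and 29 counts in DAH3615-MS flowers and floral buds, against 22 and 12 in DAH3615 flowers and floral buds (-1.52). The thiolase Cla002733 was the highest. The 37 phenylpropanoid, flavonoid and oxidative enzymes, which make wall phenolics and pigments or use peroxide, had the highest median (0.37), with 5 genes at or above 1 (4.81% of all genes) and 5 at or below -1 (4.75%), over a range of -3.77 to 1.67. Among them, the peroxidases Cla003191 and Cla001825 had differences of opposite sign. Cla003191 had 457 and 418 counts in DAH3615-MS flowers and floral buds, against 702 and 205 in DAH3615 flowers and floral buds (1.32). Cla001825 had 188 and 11 counts in DAH3615-MS flowers and floral buds, against 89 and 28 in DAH3615 flowers and floral buds (-2.33).

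The 23 ribosomal proteins, components of the protein-making machinery, had a median of 0.29. They had 20 positive differences (51.7% of all genes), 2 at or above 1 (4.81% of all genes) and 2 at or below -1 (4.75% of all genes). Their median change was -0.93 in DAH3615-MS and -0.46 in DAH3615, so the flower was the lower organ in both lines and more so in the sterile one. The 9 genes described as 30S or 50S subunits, the plastid and mitochondrial type, were all positive, with a median of 0.41 and a range of 0.05 to 1.28. Of the 12 genes of the cytosolic 40S and 60S subunits, 9 were positive, with a median of 0.10. The split by subunit was made after the values were seen. The highest was Cla002792, a 30S ribosomal protein S13, with 20 and 56 counts in DAH3615-MS flowers and floral buds, against 51 and 41 in DAH3615 flowers and floral buds (1.28). The lowest was Cla000303, a 60S acidic ribosomal protein P1, with 29 counts in DAH3615-MS flowers and 1 in DAH3615-MS floral buds, against 73 and 53 in DAH3615 flowers and floral buds (-2.21). The 49 pentatricopeptide repeat proteins, which process organelle transcripts, had a median of 0.16, with 5 genes at or above 1 (4.81% of all genes) and 1 at or below -1 (4.75% of all genes).

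The 71 transcription factors had a median of -0.01, with 3 genes at or above 1 (4.81% of all genes) and 7 at or below -1 (4.75% of all genes). Cla001495, a NAC domain protein of a plant-specific regulator family, was the lowest, with 1672 and 301 counts in DAH3615-MS flowers and floral buds, against 862 and 517 in DAH3615 flowers and floral buds (-2.03, -2.28 to -1.81). The flower was the higher organ in both lines, by 2.59 in DAH3615-MS and 0.57 in DAH3615. Cla000855, ethylene-responsive transcription factor 10, was the highest of those with at least 100 counts, with 84 and 40 counts in DAH3615-MS flowers and floral buds, against 105 and 15 in DAH3615 flowers and floral buds (1.16). The 21 hormone genes had a median of 0.01. Of them, 20 were below 2 in size (98.7% of all genes), the exception being the SAUR-like gene Cla001873. Ethylene-responsive transcription factor 1 (Cla002330) was their lowest with at least 100 counts, with 278 and 43 counts in DAH3615-MS flowers and floral buds, against 361 and 86 in DAH3615 flowers and floral buds (-0.84).

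Cell wall enzymes, the cytoskeleton and calcium signalling, which serve pollen tube growth among other processes, had medians near that of all genes. Both DAH3615-MS libraries had at most 3 counts in 6 of the 19 cell wall enzymes (625 of all 17697 genes). The same held for 2 of the 13 cytoskeleton and motor proteins and 2 of the 18 calcium signalling genes. For such genes the sterile line offered little change to compare. The 19 cell wall enzymes had a median of 0.11 with 1 gene at or above 1 (4.81% of all genes) and 1 at or below -1 (4.75% of all genes). The polygalacturonase Cla000802 had 132 and 1616 counts in DAH3615-MS flowers and floral buds, against 151 and 773 in DAH3615 flowers and floral buds (0.95), so it was lower in the flower by 3.42 in DAH3615-MS and by 2.47 in DAH3615. The 13 cytoskeleton and motor proteins (median 0.18) had no difference of 1 or more in size (90.4% of all genes were below 1). They ran from -0.79 for the kinesin-like protein Cla002884 to 0.78 for the tubulin alpha-2 chain Cla003129, which had 136 and 878 counts in DAH3615-MS flowers and floral buds, against 307 and 918 in DAH3615 flowers and floral buds. The 18 calcium signalling genes (median 0.03) included calmodulin 5 (Cla003151), with 314 and 770 counts in DAH3615-MS flowers and floral buds, against 1262 and 1392 in DAH3615 flowers and floral buds (0.83). Of them, 1 was at or below -2 (0.915% of all genes), the calmodulin-binding protein Cla000907, with 3 and 1 counts in DAH3615-MS flowers and floral buds, against 2 and 22 in DAH3615 flowers and floral buds (-2.32).

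In 4 of the 10 pollen, late embryogenesis abundant and copper proteins, both DAH3615-MS libraries had at most 3 counts. The list had a median of 0.32 and 8 positive differences (51.7% of all genes). In the list were genes with a large gap in level between the lines, for which the sterile line offered little change to compare. Cla002347, pollen allergen Phl p 11, had 6 and 3 counts in DAH3615-MS flowers and floral buds, against 3120 and 2018 in DAH3615 flowers and floral buds (-0.04, which turned to 0.02 with TMM scaling factors and 0.30 with 5 CPM added). The multi-copper oxidase Cla003119 was not detected in DAH3615-MS, against 5175 and 3154 counts in DAH3615 flowers and floral buds (0.55). The GPI-anchored protein Cla002276, also without counts in DAH3615-MS, had 314 and 125 counts in DAH3615 flowers and floral buds (1.13). The counting interval included 0 for each of these genes (Cla002347 -2.45 to 1.30, Cla003119 -5.25 to 6.06, Cla002276 -4.64 to 6.68). The lists for photosynthesis (5 genes, median 0.21), the cell cycle and chromatin (20 genes, -0.07) and defence and stress (26 genes, -0.11) had no gene past 2. Over all genes 98.7% were below 2 in size.

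**Figure D4:**
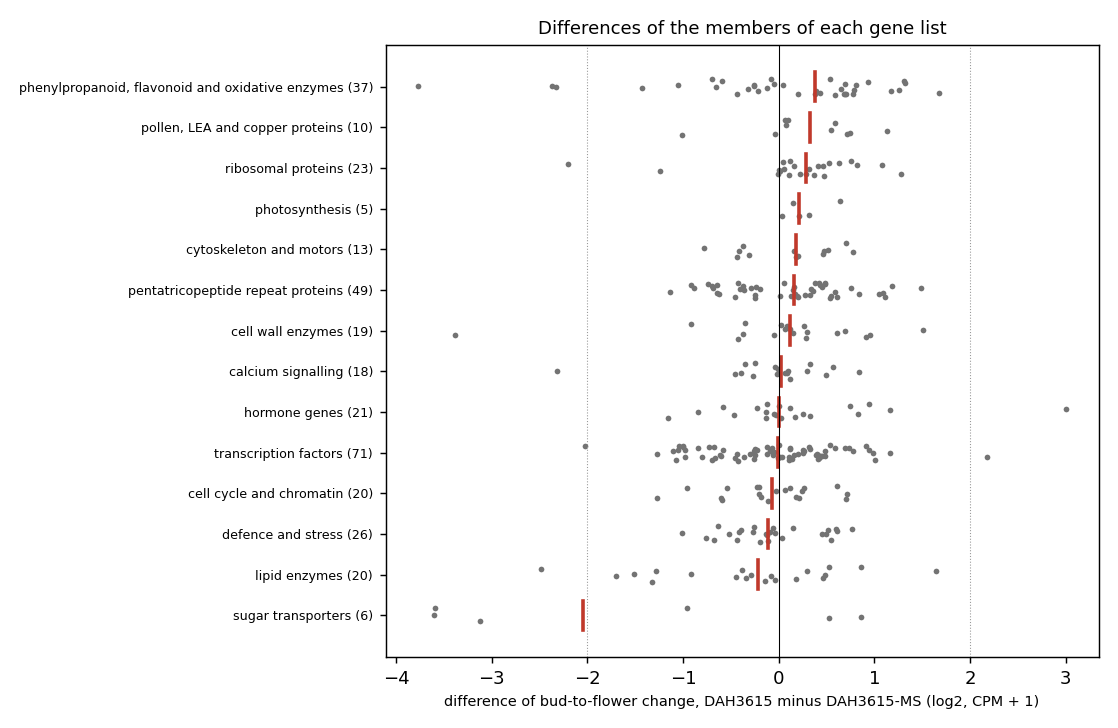
Difference of change (x axis, log2 on CPM + 1, DAH3615 minus DAH3615-MS) of each member of 14 gene lists, with the list's median as a red bar and the number of genes in brackets. The list medians lie between -0.22 and 0.37 except for the 6 sugar transporters at -2.04, a median that turned to 0.52 over genes with more than 3 counts in a library of each line.

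Markers of the tissues that the samples could hold were summed in each library. The 9 pollen and anther markers summed to 6.87 CPM in DAH3615-MS flowers and 27.5 CPM in DAH3615-MS floral buds, against 2460 CPM in DAH3615 flowers and 2023 CPM in DAH3615 floral buds. The log2 change of the sum was -2.001 in DAH3615-MS and 0.28 in DAH3615, and 3 markers were at 0 in each DAH3615-MS library. Cla002155 was the only marker higher in DAH3615-MS. It had 2.29 and 7.79 CPM in DAH3615-MS flowers and floral buds, against 1.58 and 3.20 CPM in DAH3615 flowers and floral buds. Cla003156 was nearly level in flowers (1.53 CPM in DAH3615-MS, 1.58 CPM in DAH3615), and Cla002397 had 2 counts over the 4 libraries. The sums were led by different genes, so their changes are not a change shared by the markers. In DAH3615-MS floral buds 18.7 of the 27.5 CPM came from Cla003043, a pollen Ole e 1 family protein, with 8 and 108 counts in DAH3615-MS flowers and floral buds, against 170 and 1142 in DAH3615 flowers and floral buds. Its log2 change was -2.96 in DAH3615-MS and -2.87 in DAH3615, a difference of 0.09, and the differences of the other markers ran from -1.01 to 0.74. The 7 green tissue markers summed to 1135 and 1082 CPM in DAH3615-MS flowers and floral buds, against 980 and 781 CPM in DAH3615 flowers and floral buds. The 3 floral organ MADS-box genes summed to 271 and 525 CPM in DAH3615-MS flowers and floral buds, against 254 and 367 CPM in DAH3615 flowers and floral buds. Nearly all of this came from Cla000691, with 270 and 522 CPM in DAH3615-MS flowers and floral buds and a difference of 0.41. At low counts over the 4 libraries, Cla002356 (31 counts) had a difference of 2.18 and Cla002628 (16 counts) one of -0.98. The part of these tissues in the differences above was not tested.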

How the data were processed

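The deposited table holds whole-number counts of reads per gene for 4 libraries, made by the authors with Trimmomatic, Bowtie2 within TopHat2 and HTSeq on version 1 of the watermelon genome (the tools' versions and the strand setting of the counting are not given in the sources used here). Counts were scaled to column sums (CPM), 1 CPM was added, and differences of log2 ratios were computed in Python 3.11.15 (numpy 2.4.6, pandas 2.3.3). Counting intervals used Woolf's method with 0.5 added to each count. R 4.3.3 with edgeR 4.0.16 and DESeq2 1.42.0 gave scaling factors only. The computation was checked on simulated data.

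Genes named were, with at least 100 counts, the 5 highest and 5 lowest differences, the 12 highest and 12 lowest among described genes, described genes that moved in opposite directions, the ends of each list, and tissue markers. Others named (examples of a shape, adjoining models, Cla000907 and Cla001825) were chosen after their values were seen. The genes and lists were chosen with earlier results of these data known. Descriptions were read from the study's supplementary list, of which 1999 genes were at hand. They covered 9.62% of the genes analysed, 1421 of them with an informative description. A reverse transcriptase and a multidrug resistance protein matched by keyword were removed from the lists after their values were seen. The authors' own comparisons in that list were not used.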

Additional observations from a re-analysis of the deposited data

Results flagged for a closer look

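In the following genes the lines moved in opposite directions between floral bud and flower by at least 1 each on the log2 scale; the difference was not tested, as there was 1 library per condition. The flower was higher in DAH3615-MS and lower in DAH3615 for Cla022857 (difference, DAH3615 minus DAH3615-MS, -8.14), Cla020593 (-5.42), the adjoining cation/H(+) antiporter models Cla001748 (-5.23) and Cla001749 (-4.27), Cla016180 (-4.14), the NADH dehydrogenase Cla001355 (-3.84), Cla012974 (-3.06), Cla022015 (-2.76) and Cla004710 (-2.65). Cla020593 had 533 and 118 counts in DAH3615-MS flowers and floral buds, against 112 and 933 in DAH3615 flowers and floral buds. Cla012974 had 346 and 101 counts in DAH3615-MS flowers and floral buds, against 1043 and 2144 in DAH3615 flowers and floral buds.

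The reverse was found in both genes that follow. Cla020727 (2.59) had 23 and 58 counts in DAH3615-MS flowers and floral buds, against 111 and 30 in DAH3615 flowers and floral buds. Cla003590 (2.62) had 2 and 16 counts in DAH3615-MS flowers and floral buds, against 18 and 4 in DAH3615 flowers and floral buds.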

How the results depend on the processing

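The median difference over all genes was 0.02 in the analysis as reported, 0.035 with TMM factors, 0.0323 with median-of-ratios factors, 0.0101 with 5 CPM added and 0.00908 with a minimum of 1 count. The 70 genes at or above 2 became 315 with 0.2 CPM added, 8 with 5 CPM added and 46 with a minimum of 100 counts, and the 162 genes at or below -2 became 367 and 70 with 0.2 and 5 CPM added. Genes moving in opposite directions numbered 28 as reported, 93 with 0.2 CPM and 10 with 5 CPM added. The correlation of the changes was 0.747 with 0.2 CPM added, 0.827 with 5 CPM added, 0.785 with a minimum of 1 count, 0.826 with a minimum of 100 counts and 0.809 over genes with more than 3 counts in at least 1 library of each line. TMM factors gave 71 and 160 genes past 2, of which 69 and 160 were among those reported. Of 98 list medians under alternatives, 5 changed sign: sugar transporters to 0.52 (more than 3 counts in a library of each line), lipid enzymes to 0.05 and cell cycle to 0.02 (both with a minimum of 100 counts), hormone genes to -0.03 (5 CPM added) and transcription factors to 0.0021 (TMM factors). The sugar transporter median was also -0.96 with a minimum of 1 count and -1.45 with 5 CPM added. Of 370 values for 54 named genes, 10 moved beyond the counting interval when it was re-centred on the reported difference. All 10 were with 5 CPM added. More values lay outside the counting intervals as computed, which have another centre. With 5 CPM added, Cla001749 was at -2.63 (interval -7.27 to -3.81) and Cla021494 at 1.76 (2.61 to 10.66). The sign changed for Cla002347 alone, from -0.04 as reported to 0.02 with TMM factors, 0.03 with median-of-ratios factors and 0.30 with 5 CPM added. No paired analysis was possible because each condition had 1 library with no replicate number, and none could be left out since all 4 enter each difference.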

Other observations

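Of the 232 genes past 2 in either direction, 22 (9.48%) formed 11 runs of 2 genes adjacent in the count table's gene order, 9 of them at or below -2, and no run was longer than 2. How alike adjacent genes are over all genes was not computed, so this share is no measure of clustering. On chromosome 4, Cla018390 (21574282 to 21574503) had 67 and 6 counts in DAH3615-MS flowers and floral buds, against 59 and 103 in DAH3615 flowers and floral buds (difference, DAH3615 minus DAH3615-MS, -3.66). Its neighbour Cla018391 (21577757 to 21579175) had 664 and 58 counts in DAH3615-MS flowers and floral buds, against 543 and 810 in DAH3615 flowers and floral buds (-4.27). In both, the flowers of the lines had similar counts and the sterile floral bud was low.

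On chromosome 5, Cla010187 (31367259 to 31368312) had 55 and 67 counts in DAH3615-MS flowers and floral buds, against 36 and 1064 in DAH3615 flowers and floral buds (-4.69). The next gene, Cla010186 (31370731 to 31372401), had 35 and 3 counts in DAH3615-MS flowers and floral buds, against 5 and 18 in DAH3615 flowers and floral buds (-3.57). Members of a run therefore did not always share a profile. These genes were chosen after their values were seen, and reads shared between near-identical neighbours were not examined.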
